A study of Mus musculus with 10 samples.

Results

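The 9 organic anion and organic cation transporter genes described here, Slc22a2, Slc22a6, Slc22a7, Slc22a8, Slc22a12, Slc22a13, Slc22a19, Slc22a22 and Slc22a30, were taken by symbol from the 24062 genes of a kidney count matrix. They were 9 of the 26 Slc22 symbols in that matrix, and all 9 passed the filter on low counts. Polyadenylated RNA of whole kidneys from adult male mice had been sequenced as 100-base single-end reads. The groups were 4 Ehhadh knockout mice (KO) on C57BL/6N, 1 DBA_2J mouse and 1 129S2_SvPasCrl mouse that were both wild type for Ehhadh, and 4 C57BL/6N wild-type mice (WT). Ehhadh encodes the peroxisomal bifunctional enzyme of fatty acid beta-oxidation. The labels call the genotype only knockout, without naming an allele, a promoter or a founder line, and give no age beyond adult.

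Slc22 proteins are membrane carriers that move charged small molecules in and out of epithelial cells, and the proximal tubule of the kidney holds many of them. In secretion, anion carriers of the basolateral membrane take drugs, uremic solutes and signalling molecules from blood in exchange for an intracellular dicarboxylate, and cation carriers of the same membrane take up positively charged solutes. Other members sit on the apical membrane facing the urine, where they exchange urate and other anions. In rodents the levels of several members also differ between males and females.

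Library totals ranged from 19790430 to 57250374 assigned counts, with means of 47168043 ± 4818571 in KO and 29808674 ± 6975170 in WT kidneys (SD, n = 4 each), so depth differed with genotype. In the KO and WT libraries the 9 transporters had between 807 and 152684 counts each. Ehhadh itself had 282, 327, 246 and 176 CPM in the KO libraries, 795 CPM in DBA_2J, 788 CPM in 129S2_SvPasCrl and 3398, 2217, 2078 and 2185 CPM in the WT libraries. CPM are counts per 1000000 library counts after TMM scaling over all 10 libraries, and values of a group are given in the order of its replicates 1 to 4. Ehhadh was lower in KO (log2 fold change −3.26, SE 0.21), and the strain libraries also lay below the WT range. The kidney markers listed further down were present in every library, while the liver gene Alb averaged 5.13 CPM in KO and 13.1 CPM in WT kidneys.

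In Ehhadh KO kidneys 3 of the 9 transporters fell and none rose. These were Slc22a30, at 62.5% of its WT level in the fit, Slc22a13 at 70.1% and Slc22a8 at 73.8%. A gene was called at an adjusted p under 0.05 in edgeR's quasi-likelihood test, with Benjamini-Hochberg adjustment over 15547 tested genes. Of all tested genes 4.68% were called lower, and 11.0% were called in either direction. The median log2 fold change was −0.29 over the 9 transporters and −0.01 over all tested genes, and 8 of the 9 values were negative. The 6 others, Slc22a2, Slc22a6, Slc22a7, Slc22a12, Slc22a19 and Slc22a22, did not pass the test. In the 3 called genes every KO library lay below every WT library, and 7.91% of all tested genes showed such a gap in that direction. In whole kidney RNA fewer cells of a type and less RNA per cell cannot be told apart.

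**Figure D1:**
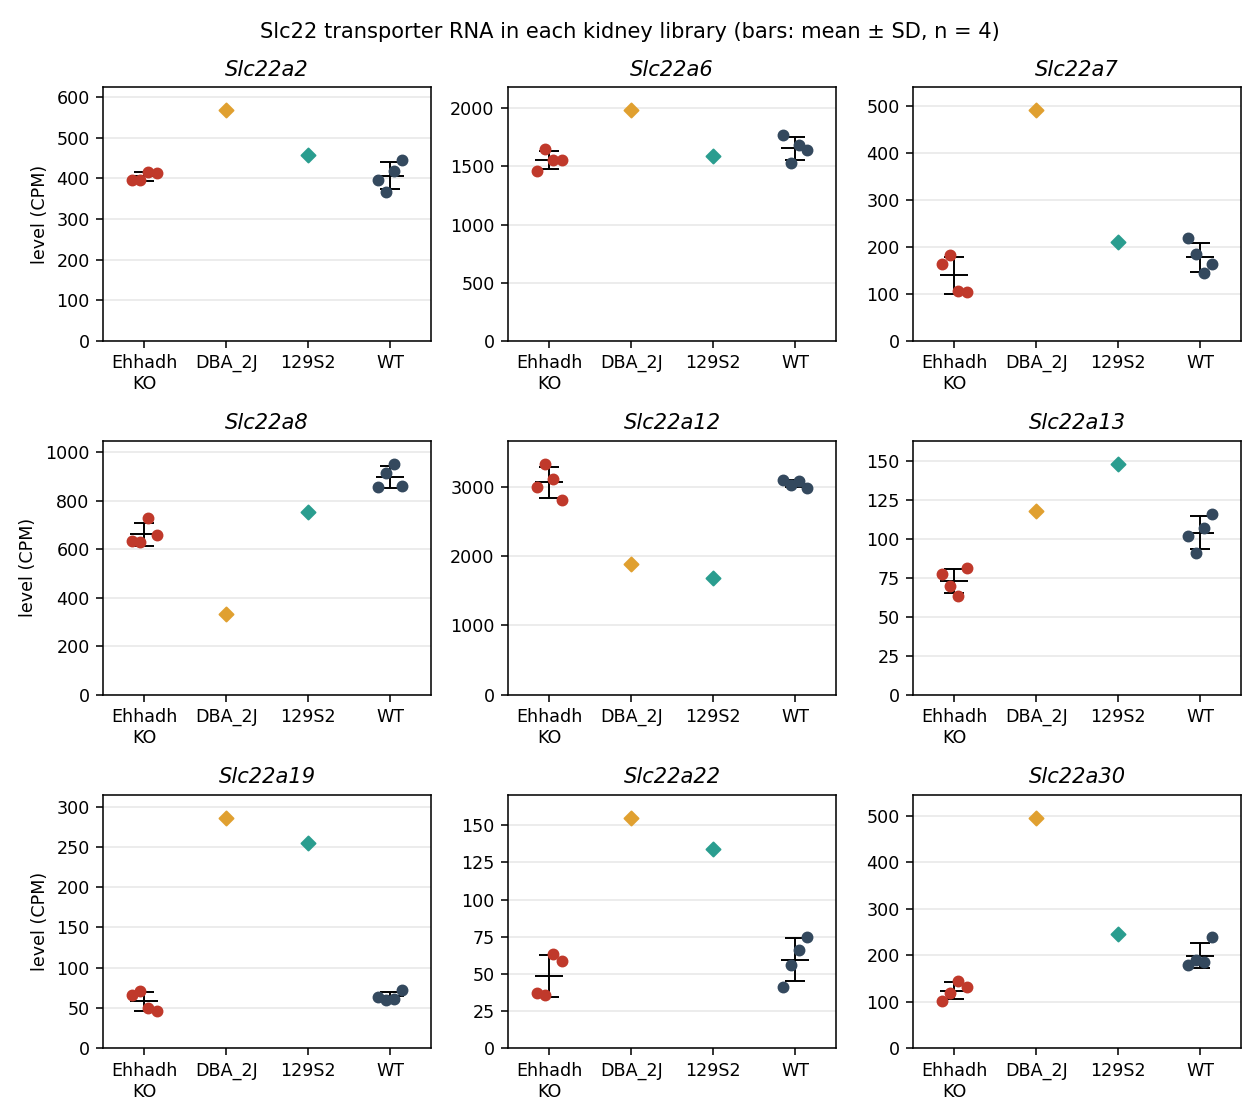
Level of each transporter in CPM (vertical axes start at 0) in every library, for Ehhadh KO, DBA_2J, 129S2_SvPasCrl and WT kidneys. Points are single libraries, and black bars are the mean ± SD of 4 libraries. KO and WT points do not overlap for Slc22a8, Slc22a13 and Slc22a30, and both strain points lie far above the WT points for Slc22a19 and Slc22a22.

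Slc22a8 and Slc22a6 encode the organic anion transporters OAT3 and OAT1, the main basolateral anion uptake carriers of the proximal tubule. They are neighbours on mm10 chromosome 19, with Slc22a8 at chr19:8591254-8611835 and Slc22a6 at chr19:8617996-8628299, both on the plus strand. Of this pair 1 gene was lower in KO kidneys and the other did not pass the test, so the 250 bases before each RefSeq start are shown (RefSeq, GRCm38.p6, plus strand, 5′ to 3′, at chr19:8592932-8593181 and chr19:8617746-8617995). They are in lower case throughout, since neither holds the HNF4 core CAAAGT, the nuclear receptor motif AGGTCA or the androgen receptor motif AGAACA on either strand.
Slc22a8: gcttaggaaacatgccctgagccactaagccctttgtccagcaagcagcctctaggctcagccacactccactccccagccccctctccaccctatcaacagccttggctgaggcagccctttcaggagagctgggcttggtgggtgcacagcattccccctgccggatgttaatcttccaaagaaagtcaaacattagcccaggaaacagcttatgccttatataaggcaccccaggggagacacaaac
Slc22a6: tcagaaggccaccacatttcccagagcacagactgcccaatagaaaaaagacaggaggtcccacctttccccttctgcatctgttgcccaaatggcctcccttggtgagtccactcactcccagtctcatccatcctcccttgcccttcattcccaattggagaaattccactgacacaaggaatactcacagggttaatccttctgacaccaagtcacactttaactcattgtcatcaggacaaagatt
The RefSeq start of Slc22a8 lies 1928 bases inside the gene as the counting annotation has it. Windows were found for 8 of the 9 transporters, and Slc22a7 had none.

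Slc22a8 had 632, 629, 730 and 657 CPM in the KO libraries and 856, 916, 951 and 861 CPM in the WT libraries. The highest KO library was below the lowest WT library. The log2 fold change was −0.44 (SE 0.07, 95% interval −0.58 to −0.29, edgeR adjusted p = 0.00198). Without each library in turn it stayed between −0.49 and −0.40, with an adjusted p of at most 0.0101. Slc22a6 had 1461, 1647, 1559 and 1556 CPM in the KO libraries and 1768, 1530, 1681 and 1645 CPM in the WT libraries. These overlapped, and the log2 fold change of −0.09 (SE 0.07, 95% interval −0.23 to 0.05, edgeR adjusted p = 0.423) did not pass the test.

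The balance between the 2 basolateral anion carriers was tested within each library as the log2 ratio of Slc22a6 to Slc22a8. It averaged 1.23 ± 0.12 in KO and 0.89 ± 0.13 in WT kidneys (SD, n = 4 each). The KO values ran between 1.09 and 1.39 and the WT values between 0.74 and 1.05, so the groups did not overlap. The difference of 0.35 had p = 0.0286 in a two-sided exact permutation test, the smallest p that 4 against 4 libraries can give. With Benjamini-Hochberg adjustment over the 2 ratios tested p was 0.0571, which does not pass 0.05. Since 7 libraries cannot give a p under 0.0571, leaving out a library gives no test at this threshold, and the difference then ran between 0.30 and 0.40.

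Some sample titles begin with the letter E and others with a number. The E titles were those of KO replicates 3 and 4 and WT replicates 3 and 4, so each form held 2 KO and 2 WT libraries, and the labels do not say what it marks. The number at the start of a title never occurred in both genotypes, so whatever it marks and genotype cannot be told apart. In fits of 2 libraries against 2, the log2 fold change of Slc22a8 was −0.39 within the E titles (edgeR adjusted p = 0.146, not passing) and −0.49 within the others (adjusted p = 0.000681). The difference in the Slc22a6 to Slc22a8 log2 ratio was 0.29 within the E titles and 0.40 within the others.

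Slc22a7 encodes the organic anion transporter OAT2, at chr17:46432185-46438477 on the minus strand. It had 164, 183, 107 and 103 CPM in the KO libraries and 218, 184, 145 and 164 CPM in the WT libraries. The KO libraries with E titles, the last pair, lay below every WT library, and the others lay within the WT range. The log2 fold change of −0.35 (SE 0.19, 95% interval −0.77 to 0.06, edgeR adjusted p = 0.269) did not pass the test. With title form as a term in the fit it was −0.39 with an adjusted p of 0.018, which passes. Within the E titles it was −0.56 and within the others −0.21.

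Among the cation carriers, Slc22a2 encodes the basolateral organic cation transporter OCT2 and lies at chr17:12584189-12628488 on the plus strand. It had 396, 395, 416 and 413 CPM in the KO libraries and 396, 367, 418 and 444 CPM in the WT libraries. All KO values fell inside the WT range, with a log2 fold change of −0.0043 (SE 0.06) and a 95% interval of −0.15 to 0.14.

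Slc22a12 encodes the urate transporter URAT1 of the apical membrane, at chr19:6535856-6543070 on the minus strand. It had 3012, 3337, 3124 and 2811 CPM in the KO libraries and 3108, 3027, 3085 and 2996 CPM in the WT libraries. KO libraries lay on both sides of the WT range, and the log2 fold change was 0.01 (SE 0.07, 95% interval −0.14 to 0.15, edgeR adjusted p = 0.959).

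Slc22a13 encodes OAT10, an apical exchanger known to carry urate and nicotinate, at chr9:119192978-119209105 on the minus strand. It had 77.4, 69.7, 63.3 and 81.2 CPM in the KO libraries and 102, 91.2, 107 and 116 CPM in the WT libraries. All KO libraries were below all WT libraries. The log2 fold change was −0.51 (SE 0.09, 95% interval −0.71 to −0.31, edgeR adjusted p = 0.00495), and it was called without each library in turn, with an adjusted p of at most 0.0195. Within the E titles it was −0.63 (adjusted p = 0.097, not passing) and within the others −0.39 (adjusted p = 0.0101). Of the 100-base windows of the longest Slc22a13 transcript in the GENCODE vM21 annotation, 21.8% also occur in the pseudogene Slc22a13b-ps, so some reads could not be told apart by their sequence. That pseudogene had 4.35 to 6.57 CPM in KO and 6.45 to 8.76 CPM in WT kidneys, far below Slc22a13 itself.

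Slc22a19, at chr19:7673076-7711310 on the minus strand, encodes the rodent transporter Oat5, which carries sulfated steroids among other anions. It had 66.5, 70.5, 49.7 and 46.7 CPM in the KO libraries and 63.8, 60.0, 61.3 and 72.1 CPM in the WT libraries. The KO libraries split by title form, with the E titles below every WT library. The log2 fold change over all libraries was −0.14 (SE 0.13, 95% interval −0.42 to 0.14, edgeR adjusted p = 0.542), −0.47 within the E titles and 0.15 within the others. The value of the others minus that of the E titles was 0.62 (unadjusted p = 0.000809, edgeR adjusted p = 0.384 over all genes), so it did not pass the adjustment.

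Slc22a22 encodes a prostaglandin-specific organic anion transporter of the mouse kidney, at chr15:57243771-57477625 on the minus strand. It had 37.4, 36.1, 63.1 and 58.8 CPM in the KO libraries and 41.0, 56.3, 66.3 and 75.0 CPM in the WT libraries. Libraries with E titles, the last pair of each genotype, were the higher ones in both genotypes. The log2 fold change of −0.29 (SE 0.21, 95% interval −0.75 to 0.16, edgeR adjusted p = 0.414) did not pass the test, and within the titles without E it was −0.41 with an adjusted p of 0.0464.

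Slc22a30 lies at chr19:8335623-8405105 on the minus strand, in a run of closely related genes that also holds Slc22a28, Slc22a29, Slc22a27, Slc22a26 and Slc22a19. It had 101, 120, 144 and 132 CPM in the KO libraries and 180, 191, 186 and 239 CPM in the WT libraries, with no overlap. The log2 fold change was −0.68 (SE 0.11, 95% interval −0.93 to −0.42, edgeR adjusted p = 0.00386), the largest fall among the 9. Without each library in turn it ran between −0.75 and −0.58, with an adjusted p of at most 0.0148. It was −0.62 within the E titles (adjusted p = 0.102, not passing) and −0.75 within the others (adjusted p = 0.000226).

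Slc22a28, at chr19:8062209-8131982 on the same strand, is the closest relative of Slc22a30 in this run. Their longest transcripts were 87.8% identical over 1963 aligned bases. Of the 100-base windows of the longest Slc22a30 transcript, 24.3% occur in Slc22a28 or Slc22a29. That transcript has 2598 bases, while reads were counted on 1997 bases of exon, so the share of the counted sequence may differ. Of the windows of Slc22a28, 37.0% occur in another gene. The counts kept primary alignments only, per the file headers, so how reads of such stretches were shared between these genes was not tested and their separate values are uncertain to that extent. The bases before their starts are closer still, at 97.5% identity over 244 aligned bases, and are shown for that likeness (RefSeq, GRCm38.p6, minus strand, 5′ to 3′, at chr19:8405106-8405355 and chr19:8131983-8132232), with matches to the HNF4 core CAAAGT, here on the opposite strand as ACTTTG, in capitals.
Slc22a30: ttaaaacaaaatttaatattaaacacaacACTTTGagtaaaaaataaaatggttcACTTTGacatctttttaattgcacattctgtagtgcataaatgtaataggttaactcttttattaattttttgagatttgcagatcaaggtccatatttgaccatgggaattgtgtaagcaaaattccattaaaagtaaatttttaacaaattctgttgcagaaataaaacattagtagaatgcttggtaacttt
Slc22a28: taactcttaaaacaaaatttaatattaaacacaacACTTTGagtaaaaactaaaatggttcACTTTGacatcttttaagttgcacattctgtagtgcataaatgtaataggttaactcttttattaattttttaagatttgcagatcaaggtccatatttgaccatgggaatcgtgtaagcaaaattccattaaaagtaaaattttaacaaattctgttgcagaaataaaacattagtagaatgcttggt
Each window held 2 matches in like places, at 221 and 195 bases before the start in Slc22a30 and at 215 and 189 bases in Slc22a28. The 8 transporters with a window had 9 windows, since RefSeq gives Slc22a22 more than 1 start. The core was found in 4 of these 9 windows (Slc22a12, Slc22a19, 1 of the pair of Slc22a22, and Slc22a30) and in 12.6% of all 32851 promoter windows of the same length. The androgen receptor motif AGAACA was in 2 of the 9, those of Slc22a19 and 1 of Slc22a22, against 16.1% of all windows. The nuclear receptor motif AGGTCA was in 0 of the 9, against 14% of all windows. Both strands were searched for each motif. All matches of Slc22a22 were in the window of a start that lies 212464 bases inside the gene as the counting annotation has it. Its other window, before the annotated start, held none.

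Slc22a28 had 92.2, 105, 143 and 150 CPM in the KO libraries and 152, 160, 174 and 214 CPM in the WT libraries. The groups did not overlap, but the log2 fold change of −0.52 (SE 0.15, edgeR adjusted p = 0.0529) did not pass the test. In DESeq2 its adjusted p was 0.0089 and in limma voom 0.0482, both of which pass. With title form as a term in edgeR it passed at 0.00216, with no filter on low counts at 0.0459 and with thinned libraries at 0.0486. It also passed without KO replicate 3 (0.0475), without KO replicate 4 (0.0254) and within the titles without E (0.000256), but not within the E titles (0.17). Across all its alternatives the adjusted p ran between 4.5e-08 and 0.17.

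**Figure D2:**
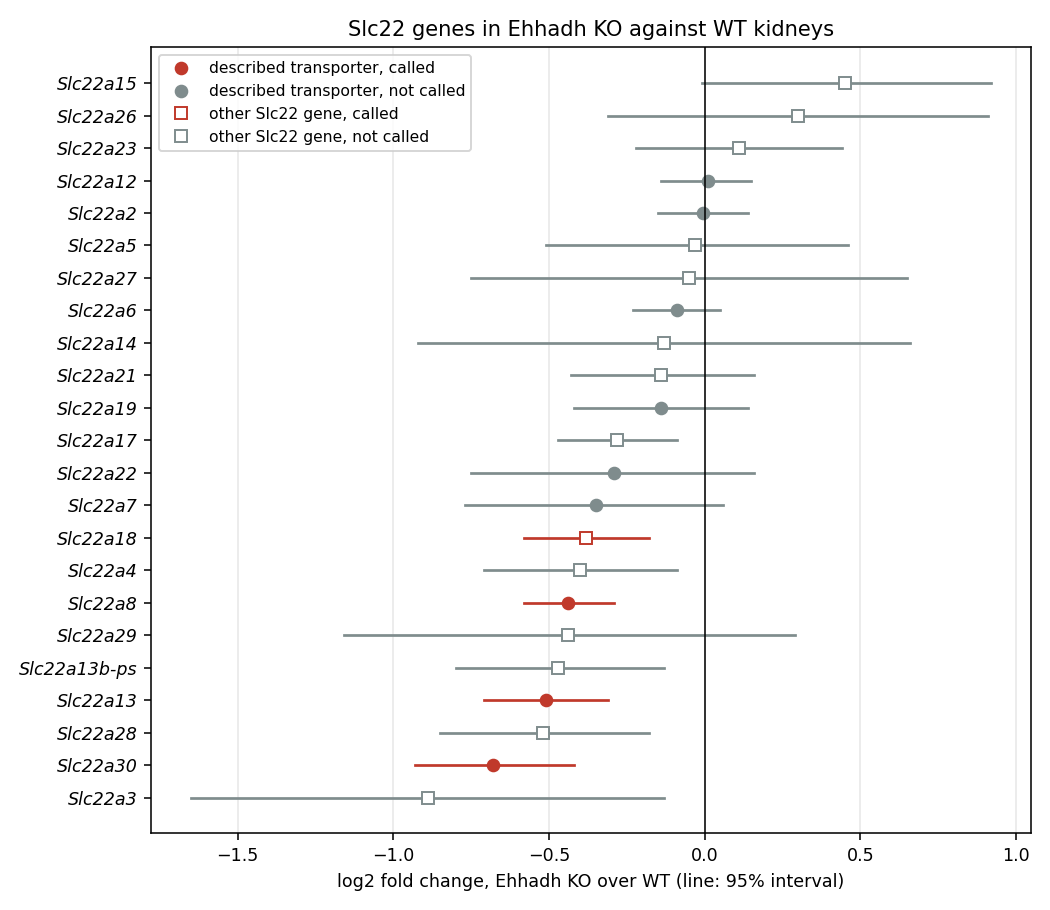
Log2 fold change of tested Slc22 genes in Ehhadh KO over WT kidneys, with 95% intervals from the fit, sorted from highest to lowest. Filled circles are the 9 transporters described here, open squares are other Slc22 genes, and red marks the 4 genes called lower: Slc22a30, Slc22a13, Slc22a8 and Slc22a18.

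Of the 17 other Slc22 symbols 15 could be tested, and of these 1 was called lower, 0 were called higher and 14 did not pass, with a median log2 fold change of −0.14. The called gene was Slc22a18, an imprinted member of the family, with 528, 463, 578 and 450 CPM in the KO libraries and 643, 732, 666 and 586 CPM in the WT libraries. Its groups did not overlap (log2 fold change −0.38, SE 0.09, edgeR adjusted p = 0.0245), but it did not pass without KO replicate 2 or without WT replicate 1, 2 or 3, with adjusted p-values up to 0.0739. The carnitine transporter gene Slc22a5 averaged 372 ± 159 CPM in KO and 378 ± 54.8 CPM in WT kidneys (SD, n = 4 each; log2 fold change −0.03, SE 0.22). Without KO replicate 4, which had 610 CPM, its log2 fold change was −0.37 with an edgeR adjusted p of 0.0393, and within the titles without E it was −0.31 with 0.0134. Slc22a4, which encodes the ergothioneine transporter, had 44.4, 39.6, 55.6 and 69.6 CPM in the KO libraries and 64.1, 73.4, 67.6 and 70.6 CPM in the WT libraries (log2 fold change −0.40, SE 0.14, edgeR adjusted p = 0.0986; 0.00651 without KO replicate 4). It passed with title form as a term (adjusted p = 0.0385) and in DESeq2 (0.0462), and its log2 fold change was −0.15 within the E titles (0.602) and −0.71 within the others (0.000336). Slc22a17 had 35.1 to 45.8 CPM in KO and 48.3 to 50.2 CPM in WT kidneys, and did not pass the test in edgeR at an adjusted p of 0.0638 (0.0301 without KO replicate 4 and 0.0436 without KO replicate 3). It passed with title form as a term (0.029), in DESeq2 (0.0364) and within the titles without E (0.00197), and not within the E titles (0.555). Slc22a16 had 0 counts in every library, and Slc22a20 had counts in the first 2 KO libraries only, at 0.0395 and 0.0715 CPM.

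Compared per length, as CPM per kb of exon, the transporters spanned a wide range in WT kidneys. Slc22a12 was the most abundant, at 1363 ± 97.4 CPM per kb in KO and 1355 ± 22.8 CPM per kb in WT kidneys (SD, n = 4 each). Slc22a6 followed with 386 ± 18.9 in KO and 411 ± 24.5 CPM per kb in WT kidneys. Slc22a8 came next in WT, at 189 ± 13.4 in KO and 255 ± 13.0 CPM per kb in WT kidneys, above Slc22a2 with 190 ± 5.24 in KO and 190 ± 15.3 CPM per kb in WT kidneys. In all 4 WT libraries Slc22a8 was above Slc22a2, whereas in KO kidneys the means of these genes differed by less than their spread. Lengths are of all exons in the counting annotation, 3510 bases for Slc22a8 and 2138 for Slc22a2, and the order between genes depends on them.

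The lower part of the order held Slc22a30, with 62.3 ± 9.36 in KO and 99.5 ± 13.6 CPM per kb in WT kidneys. Slc22a7 had 69.4 ± 20.2 in KO and 88.7 ± 15.6 CPM per kb in WT kidneys, and its WT libraries overlapped those of Slc22a30. Slc22a13 had 36.4 ± 3.99 in KO and 51.8 ± 5.07 CPM per kb in WT kidneys. Slc22a19, with 29.4 ± 6.01 in KO and 32.4 ± 2.75 CPM per kb in WT kidneys, overlapped Slc22a22, with 20.6 ± 5.95 in KO and 25.2 ± 6.16 CPM per kb in WT kidneys. Within each of the 4 WT libraries, though, Slc22a19 was the higher of the pair. Summed over the 9 genes the level was 2346 ± 118 in KO and 2510 ± 46 CPM per kb in WT kidneys. Slc22a12 and Slc22a6 together made up 74.5% of that sum in KO and 70.4% in WT kidneys.

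**Figure D3:**
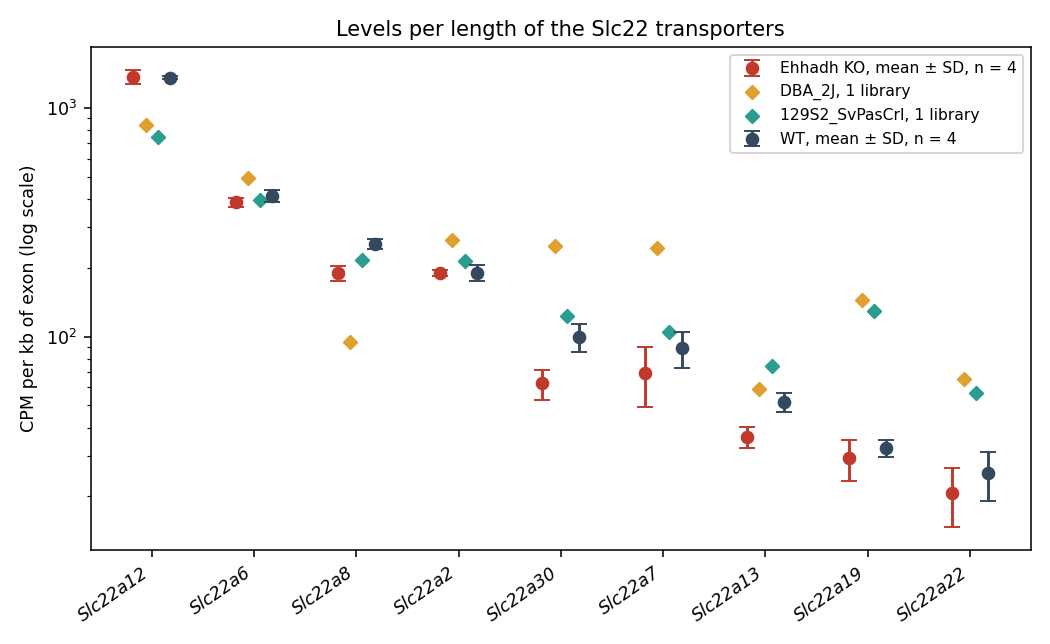
CPM per kb of exon (log scale) of the 9 transporters, ordered by their WT level, for Ehhadh KO and WT kidneys (mean ± SD, n = 4 each) and for the single DBA_2J and 129S2_SvPasCrl libraries (diamonds). Slc22a12 stands highest in every group, and the KO mean of Slc22a8 (189 CPM per kb) is level with that of Slc22a2 (190 CPM per kb).

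Several transporters stood far above their C57BL/6N WT level in the DBA_2J library, the 129S2_SvPasCrl library or both, and Slc22a8 far below it in DBA_2J. These comparisons use the same 4 WT libraries as the KO comparison. All libraries were counted on the same mm10 annotation, and the effect of strain sequence differences on the counts was not tested. With 1 library per strain there is no test, so a gene was counted as past the fold where it lay outside the range of the 4 WT libraries with a log2 difference of 1 or more in size. In DBA_2J 5 of the 9 transporters were past the fold, 4 of them upward, beside 12.6% of all tested genes. In 129S2_SvPasCrl 2 of the 9 were past it, both upward, beside 9.42% of all tested genes. All 9 lay outside the WT range in DBA_2J, beside 72.5% of all tested genes, and 7 of the 9 in 129S2_SvPasCrl, beside 64.6%.

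Slc22a19 showed the largest difference of the 9 in both strains, with 286 CPM in DBA_2J and 255 CPM in 129S2_SvPasCrl against 60.0 to 72.1 CPM in WT kidneys. That is 4.44 times the WT mean in DBA_2J and 3.97 times in 129S2_SvPasCrl. The prostaglandin carrier gene Slc22a22 had 155 CPM in DBA_2J and 134 CPM in 129S2_SvPasCrl against 41.0 to 75.0 CPM in WT kidneys, 2.60 times the WT mean in DBA_2J and 2.25 times in 129S2_SvPasCrl. Both genes were also outside the range of the KO libraries in both strains.

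Other strain differences were past the fold in DBA_2J alone. Slc22a7 had 491 CPM in DBA_2J and 211 CPM in 129S2_SvPasCrl against 145 to 218 CPM in WT kidneys, 2.76 times the WT mean in DBA_2J. Slc22a30 had 496 CPM in DBA_2J and 247 CPM in 129S2_SvPasCrl against 180 to 239 CPM in WT kidneys, so it was above WT in DBA_2J, where the KO was below WT. The single downward value was that of Slc22a8, with 333 CPM in DBA_2J and 753 CPM in 129S2_SvPasCrl against 856 to 951 CPM in WT kidneys. Its DBA_2J level was 0.372 of the WT mean, a log2 difference of −1.43, and lower than every KO library. The neighbour Slc22a6 had 1982 CPM in DBA_2J and 1592 CPM in 129S2_SvPasCrl against 1530 to 1768 CPM in WT kidneys, so the log2 ratio of Slc22a6 to Slc22a8 was 2.57 in DBA_2J and 1.08 in 129S2_SvPasCrl against at most 1.05 in WT kidneys.

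The urate carrier gene Slc22a12 was lower in both strains, with 1894 CPM in DBA_2J and 1684 CPM in 129S2_SvPasCrl against 2996 to 3108 CPM in WT kidneys, log2 differences of −0.69 in DBA_2J and −0.86 in 129S2_SvPasCrl. These are short of the fold, yet the values lay below all KO and WT libraries. Slc22a13 had 118 CPM in DBA_2J and 148 CPM in 129S2_SvPasCrl against 91.2 to 116 CPM in WT kidneys. Slc22a2 had 567 CPM in DBA_2J and 456 CPM in 129S2_SvPasCrl against 367 to 444 CPM in WT kidneys. Slc22a12 and Slc22a6 together made up 54.3% of the summed level per kb in DBA_2J and 55.5% in 129S2_SvPasCrl, against 70.4% in WT kidneys.

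**Figure D4:**
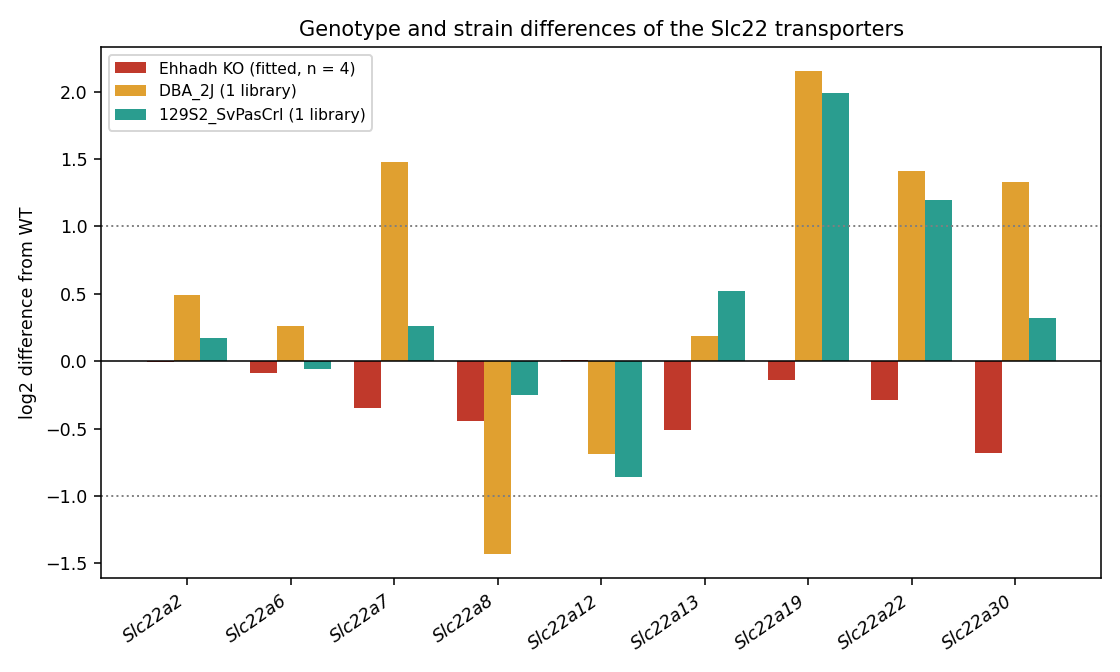
Log2 difference from WT of the 9 transporters in Ehhadh KO (fitted log2 fold change, 4 against 4 libraries) and in the single DBA_2J and 129S2_SvPasCrl libraries (log2 CPM with a prior count of 2, minus the WT mean). Dotted lines mark a log2 difference of 1 in size. All 3 comparisons share the 4 WT libraries, and Slc22a30 is below WT in KO (−0.68) and above it in DBA_2J (1.33).

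Along chromosome 19, 9 Slc22 genes could be tested, 5 of them among the transporters described here. In KO kidneys 2 of these 9 were called lower, beside 4.68% of all tested genes, and 0 were called higher. They were Slc22a30 and Slc22a8, both among the 3 called transporters given above. In the counting annotation the start sites of these 2 genes lie 212.9 and 26.7 kb before that of Slc22a6. In the strain libraries the run from Slc22a19 to Slc22a30 was above WT throughout, with log2 differences between 0.93 and 2.28 in DBA_2J and between 0.32 and 2.57 in 129S2_SvPasCrl. In this run Slc22a27 and Slc22a29 had few counts, 10 to 18 and 16 to 95 in the WT libraries. Slc22a27 had 1.05 CPM in DBA_2J and 0.85 CPM in 129S2_SvPasCrl against 0.316 to 0.508 CPM in WT kidneys. Slc22a26 showed the largest log2 difference of that run in both strains, with 33.2 CPM in DBA_2J and 40.7 CPM in 129S2_SvPasCrl against 3.89 to 11.8 CPM in WT kidneys. Genes of this run share sequence: the windows of Slc22a29 occur in another gene for 8.4% and those of Slc22a27 for 7.6%, and 0.1% of those of Slc22a19 do so. These shares are of the longest transcripts, and that of Slc22a19 has 3574 bases against 1983 bases of exon on which reads were counted.

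**Figure D5:**
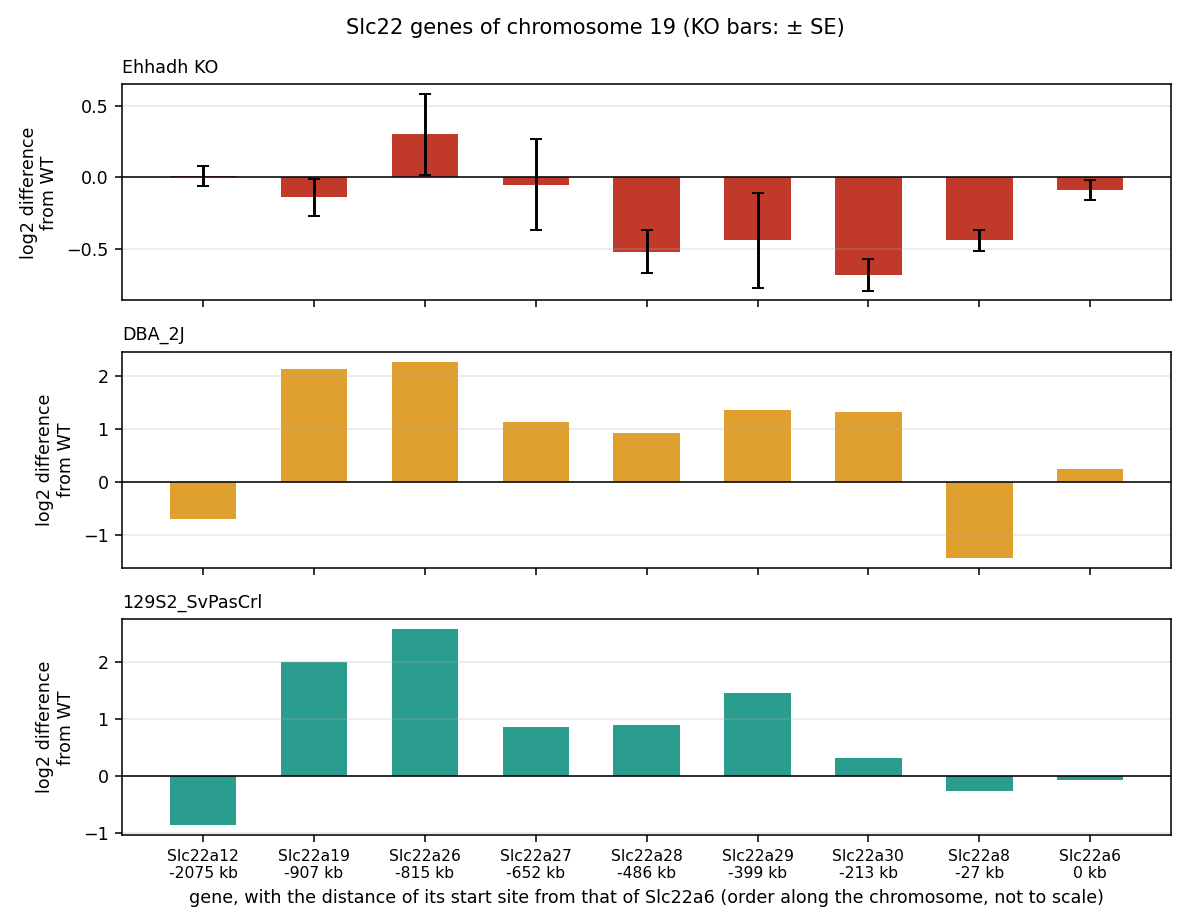
Log2 difference from WT of the 9 tested Slc22 genes of chromosome 19, in Ehhadh KO (bars with SE from the fit), DBA_2J and 129S2_SvPasCrl (1 library each, no error). Genes are in chromosome order and labelled with the distance of each start site in the counting annotation from that of Slc22a6. In KO all values but those of Slc22a12 (0.01) and Slc22a26 (0.30) are below 0, and those of Slc22a30 and Slc22a8 passed the test. In both strains the genes from Slc22a19 to Slc22a30 are above 0, and of these Slc22a27 and Slc22a29 had few counts in WT kidneys (10 to 18 and 16 to 95).

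Genes whose level followed each transporter most closely were taken among 9802 tested genes with a mean of at least 10 CPM, by Pearson's r of log2 CPM over all 10 libraries, as a description. Group means were not removed, so differences between genotypes and strains enter r, and the genotype difference also enters r over the KO and WT libraries alone. Taking the highest r among so many genes also favours high values. Slc22a8 was most like Azgp1, a zinc-binding glycoprotein gene, at r = 0.995 over the 10 libraries and 0.992 over the KO and WT libraries alone. Azgp1 averaged 40.6 ± 16.7 CPM in KO and 153 ± 35.9 CPM in WT kidneys (SD, n = 4 each), with 0.644 CPM in DBA_2J and 63.6 CPM in 129S2_SvPasCrl. The next was Smtnl2, at r = 0.99. Slc22a30 was most like Col4a4 (r = 0.991), which encodes a basement membrane collagen, and Amacr (r = 0.987), which encodes a racemase of branched-chain fatty acid oxidation. Amacr averaged 197 ± 24.9 CPM in KO and 290 ± 40.5 CPM in WT kidneys (edgeR adjusted p = 0.008).

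For Slc22a13 the closest genes were Stk38 (r = 0.97) and Fam81a (r = 0.969). Slc22a19 was closest to Mpv17l (r = 0.992) and Stk39 (r = 0.978), and Slc22a22 to Ppt2 (r = 0.984) and Zfp830 (r = 0.983). Slc22a12 was closest to Hist1h2bn (r = 0.99) and Fam219a (r = 0.984). Slc22a7 followed Abhd3 (r = 0.963) and Hif1an (r = 0.962). Slc22a2 followed Atp11a (r = 0.964) and Rrm2b (r = 0.96), and Slc22a6 followed Stxbp5 (r = 0.932) and Slc35b3 (r = 0.911). Over the KO and WT libraries alone, r of these same pairs was lower throughout, between 0.755 for Slc22a6 with Slc35b3 and 0.992 for Slc22a8 with Azgp1.

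Beside the carriers themselves, 8 partners of tubular secretion were listed, of which 1 was higher, 1 lower and 6 did not pass. Abcb1b, which encodes a drug efflux pump, averaged 22.8 ± 2.61 CPM in KO and 13.0 ± 2.01 CPM in WT kidneys (SD, n = 4 each; log2 fold change 0.80, SE 0.12, edgeR adjusted p = 0.00174). Slc13a3, the basolateral dicarboxylate carrier that supplies the exchange substrate of OAT1 and OAT3, averaged 998 ± 131 CPM in KO and 1270 ± 58.0 CPM in WT kidneys (log2 fold change −0.35, SE 0.09, edgeR adjusted p = 0.0254). It was called in 3 of the 8 fits that left out a library, with adjusted p-values up to 0.0765. The median over the 8 partners was 0.08. In the strain libraries 4 of the 8 were past the fold in DBA_2J, 0 of them upward, and 4 in 129S2_SvPasCrl, 1 of them upward.

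Of 8 urate handling genes 2 were lower, 0 higher and 6 did not pass, with a median of −0.11. The apical anion carrier genes Slc17a3 and Slc17a1 fell. Slc17a3 averaged 414 ± 43.8 CPM in KO and 586 ± 92.8 CPM in WT kidneys (log2 fold change −0.50, edgeR adjusted p = 0.0154). Slc17a1 averaged 688 ± 17.3 CPM in KO and 808 ± 11.0 CPM in WT kidneys (log2 fold change −0.23, edgeR adjusted p = 0.0162, and 0.0504 without KO replicate 1). Among 7 regulators and scaffolds 0 were called (median −0.06). The scaffold gene Slc9a3r1 had a log2 fold change of −0.10 (SE 0.09), and the transcription factor gene Hnf4a one of −0.06 (SE 0.08). Of 5 androgen-responsive kidney genes 1 was lower and 4 did not pass (median −0.16). This was Kap, the kidney androgen-regulated protein gene, with 18806 ± 2876 CPM in KO and 25075 ± 896 CPM in WT kidneys (log2 fold change −0.42, edgeR adjusted p = 0.0295), called in 3 of the 8 fits without a library. In the strain libraries 3 of the 5 androgen-responsive genes were past the fold in DBA_2J and 1 in 129S2_SvPasCrl, all upward.

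Markers of kidney cell types moved in part with these falls, and their part in the results was not tested. Of 8 proximal tubule genes 1 was lower, Lrp2 (log2 fold change −0.42, edgeR adjusted p = 0.043, and called in 1 of the 8 fits without a library), with a median of −0.27 and summed levels of 10790 to 13363 CPM in KO and 12513 to 13618 CPM in WT kidneys. For the early segment 0 of 3 were called (median 0.19), with summed levels of 991 to 1232 CPM in KO and 941 to 1065 CPM in WT kidneys. For the late segment 1 of 5 was lower (median −0.17), with summed levels of 4357 to 4660 CPM in KO and 5040 to 5868 CPM in WT kidneys. It was the amino acid carrier gene Slc7a13, with a log2 fold change of −1.01 (SE 0.13, edgeR adjusted p = 0.000902). In the strain libraries the late segment summed to 7807 CPM in DBA_2J and 7976 CPM in 129S2_SvPasCrl. Past the fold were 3 of its 5 genes in DBA_2J, all upward, and 0 in 129S2_SvPasCrl.

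Injured tubule genes were higher for 5 of 6, with a median of 1.88 and summed levels of 105 to 133 CPM in KO and 24.9 to 31.9 CPM in WT kidneys. The 4 smallest p-values were those of Havcr1 (log2 fold change 4.6), Sox9 (4.23), Vcam1 (1.68) and Krt20 (2.09). The other called gene was called in 3 of the 8 fits without a library and did not pass in limma voom (adjusted p = 0.0876). In the strain libraries the summed level was 21.5 CPM in DBA_2J and 76.4 CPM in 129S2_SvPasCrl. Past the fold were 3 of the 6 genes in each strain, only 1 of them upward in each. In 129S2_SvPasCrl most of the sum was Havcr1. There Krt20 had 0.119 CPM against 0.506 to 0.917 CPM in WT kidneys, and Vcam1 had 5.48 CPM against 6.23 to 6.64 CPM. Havcr1 had 4.07 CPM in DBA_2J and 62.8 CPM in 129S2_SvPasCrl, against 29.0 to 75.1 CPM in KO and 1.32 to 2.44 CPM in WT kidneys. Collecting duct genes were lower for 4 of 4 (Atp6v1g3, Hsd11b2, Slc4a1 and Aqp2, the last called in 5 of the 8 fits without a library, median −0.65), with summed levels of 287 to 320 CPM in KO and 427 to 695 CPM in WT kidneys. Loop and distal tubule genes were lower for 2 of 4 (Slc12a3 and Slc12a1, each called in 3 of the 8 fits without a library, median −0.42), with summed levels of 2729 to 3976 CPM in KO and 3530 to 4100 CPM in WT kidneys. Of 3 endothelial genes 1 was lower (Kdr, median −0.28; called in 1 of the 8 fits without a library, and at an adjusted p of 0.119 with thinned libraries), of 3 stromal genes 1 was lower (Acta2, median −0.04), and of 3 podocyte and 3 immune genes 0 were called (medians 0.17 and 0.14). Of 3 liver genes 2 could be tested and 0 were called, at a median of −1.22 and summed levels of 4.18 to 10 CPM in KO and 8.38 to 29.6 CPM in WT kidneys.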

How the data were processed

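Kidney RNA of 10 mice was sequenced, 1 library per animal. The authors deposited raw counts per gene, made with featureCounts 1.5.2 on exons of a UCSC mm10 annotation, keeping primary alignments, giving a read that overlaps several genes to each and using no strand option, per the file headers. STAR, featureCounts and edgeR are named in the submitters' processing notes. A deposited table of log2 values for 13645 genes in the KO and WT libraries equalled limma voom values of these counts to within 4.97e-14 and was used only for that check.

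The 9 transporters and all gene lists were chosen with earlier results of these data known. Genes named from each list are the 4 called genes of smallest p at most, or 2 uncalled ones in a list with no call, and Hnf4a was named in addition because its motif was searched. Some genes these rules name, and results that need them, are not reported here. KO was compared with WT in edgeR 4.0.16 (R 4.3.3) by glmQLFit and glmQLFTest on the counts, after filterByExpr and TMM scaling over these 8 libraries, with Benjamini-Hochberg adjustment over 15547 genes. The script was tested on simulated data. SE is the log2 fold change divided by the square root of its F statistic. Printed levels are CPM with TMM factors over 10 libraries, and log2 levels use a prior count of 2. The p-values set the difference between genotypes against the spread between single animals of each genotype. They treat animals whose titles share a starting number as independent. Alternatives were other scaling and filters, thinning to the smallest total, limma voom 3.58.1, DESeq2 1.42.0, title form as a term, each title form alone, and each library left out. The test of title form by genotype and a block on title numbers were added after seeing the data. Sequence windows of 100 bases, the read length, were compared between GENCODE vM21 transcripts.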

Additional observations from a re-analysis of the deposited data

Results flagged for a closer look

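In 48 groups of 4 libraries, 3 had a library far from the other 3, by the ratio of its gap to the whole range (Dixon's test at the 95% level); chance gives about 1 in 20. None of the 3 concerned the 9 transporters. Slc22a5, the carnitine transporter gene, had 610 CPM in KO replicate 4, against 277 to 309 CPM in the other KO libraries. The same gene had 459 CPM in WT replicate 4, against 342 to 360 CPM in the other WT libraries. Slc22a27 had 0.316 CPM in WT replicate 2, against 0.494 to 0.508 CPM in the other WT libraries. Without KO replicate 4 the log2 fold change of Slc22a5 was −0.37 with an edgeR adjusted p of 0.0393.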

How the results depend on the processing

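Leaving out each library in turn gave 3 transporters called lower and 0 called higher in every such fit, while all genes gave 610 to 916 called higher and 381 to 722 called lower, against 982 higher and 728 lower with all libraries. The counts moved by more than 1.5 times without KO replicate 1 (610 higher, 395 lower), without WT replicate 3 (625 higher, 381 lower), without KO replicate 2 (407 lower) and without WT replicate 1 (465 lower). Within the E titles alone, with 2 libraries against 2, 92 genes were called higher and 51 lower and 0 transporters were called lower. Within the titles without E, also 2 against 2, 924 genes were called higher, 799 lower and 4 transporters lower. The log2 ratio of Slc22a6 to Slc22a8 differed by 0.30 to 0.40 without each library, where no p can pass the threshold. Over the 9 transporters and their alternative fits, 135 values kept their direction and their side of the threshold, 12 changed sign, 3 passed the threshold newly and 3 no longer passed it; the last 3 were Slc22a8, Slc22a13 and Slc22a30 within the E titles.

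All values that changed sign were of genes that were not called. Slc22a2 was 0.0041 with no filter on low counts, 0.05 within the titles without E and −0.05 to 0.04 without each library. Within the titles without E, Slc22a19 was 0.15, Slc22a23 −0.09, Slc22a27 0.25, Slc22a29 0.21 and Slc22a14 0.11. Within the E titles, Slc22a12 was −0.04, Slc22a5 0.18 and Slc22a26 −0.33. Slc22a14 was 0.09 with thinned libraries. Without each library, Slc22a12 ran between −0.04 and 0.05, Slc22a5 between −0.37 and 0.09, Slc22a23 between −0.05 and 0.22, Slc22a27 between −0.19 and 0.07 and Slc22a14 between −0.34 and 0.15. The cause was not tested. The median of all genes moved by at most 0.01 under any scaling. The last numbers 2 and 3 of the titles without E occur in both genotypes, without the labels saying that they pair animals, and the differences between those libraries correlated at r = −0.03 between KO and WT over 15547 genes. A replicate block on them over these 4 libraries, added after seeing the data, gave 1030 genes called higher, 905 lower and 4 transporters lower. Uncalled values changed sign there for Slc22a2 (0.06), Slc22a19 (0.15), Slc22a23 (−0.09), Slc22a27 (0.25) and Slc22a29 (0.28). The strain differences of the 9 transporters, which rest on 1 animal each, moved by less than 1 SD of the WT libraries with RLE factors or a prior count of 0.5.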

Other observations

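Other Slc22 genes gave the following values. Slc22a26 had 10.2, 11.3, 7.03 and 7.56 CPM in the KO libraries and 7.06, 3.89, 6.61 and 11.8 CPM in the WT libraries (log2 fold change 0.30, SE 0.28), and the difference was 1.01 within the titles without a leading E (edgeR adjusted p = 0.016) and −0.33 within the E titles. Slc22a29 had 1.1 to 1.68 CPM in KO and 0.813 to 3.0 CPM in WT kidneys, against which the strain libraries stood at 4.23 CPM in DBA_2J and 4.51 CPM in 129S2_SvPasCrl. Slc22a15 had 2.45 to 3.92 CPM in KO and 1.73 to 2.88 CPM in WT kidneys (log2 fold change 0.45, SE 0.21, edgeR adjusted p = 0.207). Slc22a3, the gene of the cation transporter OCT3, had 0.335 to 0.779 CPM in KO and 0.696 to 1.37 CPM in WT kidneys (log2 fold change −0.89, SE 0.34, edgeR adjusted p = 0.126). Slc22a23 had 69.1 to 111 CPM in KO and 61.4 to 92.8 CPM in WT kidneys (log2 fold change 0.11, SE 0.15).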
